A study of Mus musculus with 20 samples.

Results

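The genes described are 9 members of the class 3 semaphorin system, namely the secreted ligands Sema3a, Sema3b, Sema3c, Sema3d, Sema3e and Sema3f and the receptor genes Nrp2, Plxna1 and Plxnd1. They were taken by symbol from the 52783 genes of the count table, and all 9 were found. The 9 genes were chosen by earlier results from these same libraries, with no threshold stated, so every contrast between the 4 groups is counted as used by the choice, and the levels of the 9 genes and the differences between groups are given as a description with no test.

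Class 3 semaphorins are secreted proteins first known for steering growing axons, and they also act on blood vessels, immune cells and tumour cells. Most of them bind a neuropilin, which has only a short tail inside the cell and passes the signal on through a class A plexin or plexin D1. Sema3e differs in that it can bind plexin D1 directly. Plexins act on small GTPases, on integrin attachment and on the actin cytoskeleton. Neuropilin 2 is in addition a co-receptor for VEGF-C and VEGF-D, and furin-type convertases cut class 3 semaphorins and change their activity.

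The libraries came from tumours of BALB/cJ females, which were bought at an age of 8 to 12 weeks. The tumours formed after injection of 66cl4 or 67NR cells, 1000000 a mouse, into the mammary fat pad. Both are cell lines of the 4T1 family, derived from a mammary tumour of a BALB/c mouse, and 66cl4 tumours metastasise whereas 67NR tumours do not. Tumours were taken 21 to 26 days after injection, dissociated, and sorted on the leukocyte surface protein CD45 into a CD45+ fraction of immune cells and a CD45- fraction of the rest, which gave 4 groups of 5 libraries from 10 animals, with both fractions from each animal. Each tumour type rests on 1 cell line, and no mouse without a tumour and no cultured cells are among the samples analysed here. The CD45- fraction holds tumour cells together with fibroblasts and vessel cells, so fewer cells of a type and less RNA per cell cannot be told apart in any of the values below.

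Total counts ranged from 12960000 to 28080314 a library. The recorded cell type of 66cl4 animals 5 and 6 went against the sample titles, and the titles were followed. Ptprc, which encodes CD45, was higher in the CD45+ library of all 10 animals, by 33.6- to 1932-fold, and results that bear on those animals are also given without them. Levels are normalised counts, that is, counts divided by the size factor of the library, unless TPM, which also allow for transcript length, are named. A gene outside the 9 was called where edgeR's quasi-likelihood test gave an adjusted p under 0.05 and the log2 fold change exceeded 1 in size.

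Sema3a and Sema3e, 2 of the ligands, had by far the higher levels in the non-immune cells of 66cl4 tumours. Sema3a, which signals through neuropilin 1 and class A plexins, reached 7387, 6781, 8062, 7538 and 8778 in 66cl4 CD45- libraries (animals 3, 4, 5, 6 and 7). In 67NR CD45- libraries (animals 1, 4, 5, 6 and 7) it stood at 598, 624.9, 508, 641 and 602. The lowest 66cl4 library thus lay above the highest 67NR library. The means were 7709 ± 752 and 595 ± 51.3 (SD, n = 5 each), a ratio of 13.0 and a log2 fold change of 3.73 with an SE of 0.100.

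Sema3e, the ligand that can do without a neuropilin, was abundant in 1 tumour type and close to the limit of detection in the other. Its levels in 66cl4 CD45- libraries were 4883, 4178, 4166, 4487 and 4281. In 67NR CD45- libraries they were 3.51, 3.75, 7.02, 6.25 and 8.18. Summed over libraries, 23898 counts stood against 33, a ratio of 773 after scaling (exact 95% interval 550 to 1123, counting error only). Without 66cl4 animals 5 and 6 the ratio of mean levels was 774, against 766 with them, and the ratios of Sema3a, Nrp2 and Plxna1 were 12.9, 2.53 and 0.429.

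The promoter windows of Sema3e, Nrp2 and Sema3c are shown because these genes cover the range of the CD45- comparison, from present in 1 tumour type, through higher in it, to alike in both. The windows run from 250 bases before to 50 bases after the start in RefSeq GRCm38.p6, on the plus strand for all 3, at chr5:14025026-14025325 (Sema3e), chr1:62703067-62703366 (Nrp2) and chr5:17574566-17574865 (Sema3c). Capitals mark matches to GGGCGG, the GC box, or to ACGTG, a form of the core of the hypoxia response element, on either strand. Other forms of that core were not searched.
Sema3e: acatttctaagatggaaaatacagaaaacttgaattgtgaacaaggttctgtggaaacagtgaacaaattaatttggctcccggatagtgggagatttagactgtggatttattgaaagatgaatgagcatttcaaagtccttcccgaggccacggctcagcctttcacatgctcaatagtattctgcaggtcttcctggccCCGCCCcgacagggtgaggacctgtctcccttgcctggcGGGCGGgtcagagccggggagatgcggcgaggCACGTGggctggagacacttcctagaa
Nrp2: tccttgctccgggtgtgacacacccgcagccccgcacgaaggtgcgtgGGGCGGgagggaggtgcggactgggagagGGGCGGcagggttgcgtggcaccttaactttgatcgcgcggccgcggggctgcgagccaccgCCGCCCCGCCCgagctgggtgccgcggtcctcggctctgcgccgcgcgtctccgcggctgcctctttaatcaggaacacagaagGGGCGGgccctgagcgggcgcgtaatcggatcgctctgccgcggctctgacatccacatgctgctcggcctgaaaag
Sema3c: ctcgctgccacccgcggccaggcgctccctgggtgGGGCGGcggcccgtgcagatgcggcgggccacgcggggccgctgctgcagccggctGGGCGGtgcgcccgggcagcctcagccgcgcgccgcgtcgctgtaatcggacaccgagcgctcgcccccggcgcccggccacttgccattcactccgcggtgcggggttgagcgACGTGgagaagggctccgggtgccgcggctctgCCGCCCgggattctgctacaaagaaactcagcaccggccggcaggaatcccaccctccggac

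The Sema3e window was 50.7% G or C with 11 CpG, near the median window of the reference (52.7% and 7 CpG over 32851 windows). The Nrp2 window held 70.7% and 37 CpG and the Sema3c window 75.7% and 42 CpG, so both were CpG-rich. GGGCGG matched 2 times in Sema3e, 5 times in Nrp2 (of which 2 matches overlapped by 1 base) and 3 times in Sema3c, and 35.7% of all windows held it. ACGTG matched once in Sema3c and, as a palindrome read on both strands, at 1 place in Sema3e, and 19.6% of all windows held it. The other motifs searched on both strands had no match in these 3 windows. They were TATAAA (in 13.6% of all windows), CACCTG (the E-box read by Snail factors, in 20.2%), TGACTCA (the AP-1 site, in 5.2%) and GGAATG (the TEAD site, in 14.7%). A match is a description of the letters and not a bound site. Windows were read for 6 of the 9 genes, without Sema3b, Sema3f and Plxna1. That of Sema3a lay 56.8% of the way into the annotated gene and is not shown.

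The remaining ligands were at similar levels in the non-immune cells of both tumours. Sema3c, a ligand known for heart and vessel development, stood at 1407, 1306, 1682, 1317 and 1242 in 66cl4 CD45- libraries and at 1027, 1207, 1133, 1366 and 1308 in those of 67NR. The ranges overlapped, with means of 1391 ± 173 and 1208 ± 136 and a log2 fold change of 0.24 (SE 0.103). Sema3b and Sema3f, which lie on chromosome 9 with 3 protein-coding genes between them and are both described as growth-restraining ligands, also overlapped between tumours.

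Sema3f, which prefers neuropilin 2, had CD45- levels of 382, 422, 346, 346 and 284 in 66cl4 and 266, 425, 417, 341 and 262 in 67NR, a log2 fold change of 0.09 (SE 0.154). Sema3b ranged from 73.3 to 134 in 66cl4 and from 79.5 to 111 in 67NR CD45- libraries, a log2 fold change of 0.03 (SE 0.197). Sema3d was near the floor everywhere. Its CD45- levels were 3.98, 4.99, 7.49, 4.25 and 23.0 in 66cl4 and 2.63, 2.25, 7.90, 4.69 and 9.20 in 67NR, too low to pass the filter on low counts. The ratio of its means, 1.64, became 0.970 without the library of 66cl4 animal 7, which alone exceeded 20 normalised counts.

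Of the receptors, Nrp2 was higher and Plxna1 lower in 66cl4 CD45- cells. Nrp2 had 7450, 6669, 6483, 6496 and 6963 normalised counts in 66cl4 and 2974, 2993, 2446, 2852 and 2644 in 67NR. The groups did not overlap, with means of 6812 ± 406 and 2782 ± 233, a ratio of 2.45 and a log2 fold change of 1.32 (SE 0.0841). Plxna1, the class A plexin that pairs with neuropilins, went the other way. It had 912, 891, 820, 791 and 848 in 66cl4 and 1797, 2355, 2000, 2072 and 2067 in 67NR, again without overlap, a log2 fold change of -1.24 (SE 0.0859).

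Plxnd1, the receptor of Sema3e and a plexin known from endothelial cells, had 808, 642, 640, 624 and 653 in 66cl4 CD45- libraries and 786, 1333, 970, 1064 and 845 in those of 67NR. The ranges met through 66cl4 animal 3, and the log2 fold change was -0.54 (SE 0.132). The ligand Sema3e was highest in the group in which its receptor gene had a mean of 673 ± 76.1, against 1000 ± 215 in 67NR CD45- cells. Plxnd1 was about as low in the CD45+ cells, with means of 631 in 66cl4 and 668 in 67NR.

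**Figure D1:**
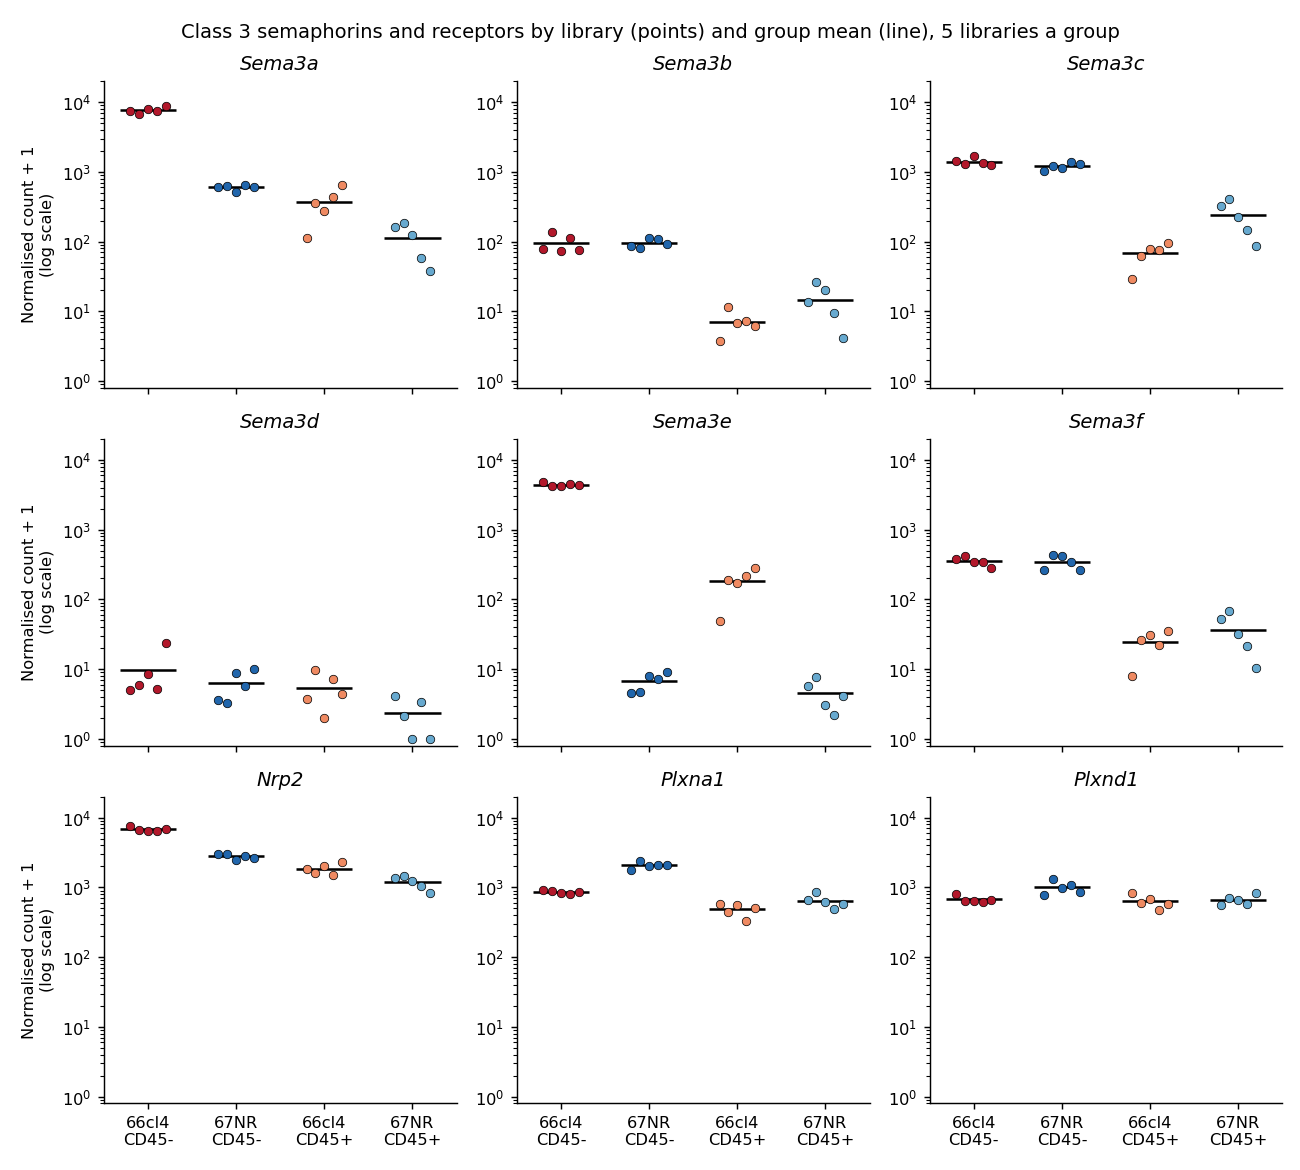
Normalised count plus 1 on a log scale for each of the 9 genes, 1 point a library and a line at the mean of the 5 libraries of each group. Sema3e sits between 4166 and 4883 in the 66cl4 CD45- libraries and under 10 in all 67NR libraries, and Plxnd1 stays between 472 and 1333 in all 4 groups.

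By the call rule used for the other genes, 8 of the 9 passed the filter in the CD45- comparison, of which 3 were higher (Sema3a, Sema3e, Nrp2) and 1 lower (Plxna1). Over all 14844 genes tested, 32.2% were called, 13.2% higher and 18.9% lower. The libraries of the tumours did not overlap for 4 of the 9 genes and for 52.9% of all genes. The median log2 fold change of the tested members was 0.16, beside -0.01 over all genes. As the list was chosen with such values known, nothing is read from these shares. The same holds for every share of members that met the call rule in the comparisons below.

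Marker genes of other cell types differed between the CD45- fractions. All 5 pericyte markers, 5 of 6 tested endothelial markers and 4 of 7 fibroblast markers were lower in 66cl4. The summed fibroblast level was 8005 to 13730 in 66cl4 and 14010 to 21780 in 67NR, the pericyte sum 360 to 1045 against 1128 to 4616, and the endothelial sum 520 to 1032 against 1007 to 3964, with none of these markers at 3 counts or fewer in every library. Of the epithelial list, Krt8 (log2 fold change 6.47) and Krt18 (4.32) were higher and Epcam (-1.41) lower in 66cl4. The part of these cell types in the differences of Sema3a, Sema3e, Nrp2 and Plxna1 was not tested.

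In the immune cells, 3 of the 7 members that passed the filter met the call rule between tumours, against 11.8% of all 14676 genes. Sema3a and Sema3e were higher (5.01% of all genes) and Sema3c lower (6.82%) in 66cl4 CD45+ cells. For 2 of the 9 genes, Sema3e and Nrp2, the libraries of the tumours did not overlap, which held for 15.1% of all genes. The median over the tested members was a log2 fold change of -0.07, beside 0.01 over all genes. As in the CD45- comparison, nothing is read from these shares.

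Sema3e in CD45+ cells was at 48.7, 189, 171, 218 and 281 in 66cl4 and at 4.68, 6.60, 2.03, 1.20 and 3.09 in 67NR, from 949 against 15 counts in all. The ratio of the summed counts after scaling was 55.6 (exact 95% interval 33.6 to 99.8, counting error only). The interval leaves out the spread between animals. Every 66cl4 library was above every 67NR library. Nrp2 was at 1818, 1583, 2040, 1513 and 2294 against 1361, 1439, 1229, 1058 and 840, a log2 fold change of 0.65 (SE 0.176).

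Sema3a and Sema3c differed between the tumours in opposite directions in the immune cells. Sema3a was at 110, 360, 270, 436 and 642 in 66cl4 and at 161, 181, 123, 56.3 and 37.0 in 67NR CD45+ libraries, so that 66cl4 animal 3 fell inside the 67NR range. Its log2 fold change was 1.71 (SE 0.524). Sema3c was at 27.8, 61.2, 76.2, 75.8 and 95.5 in 66cl4 and at 320, 409, 225, 144 and 85.4 in 67NR, and had a log2 fold change of -1.80 (SE 0.436). The overlap came from 67NR animal 7, which had the lowest level of Sema3a, Sema3c, Sema3f and Nrp2 in its group. Without 66cl4 animals 5 and 6 the log2 fold changes were 1.73 for Sema3a, -1.93 for Sema3c, 5.59 for Sema3e and 0.68 for Nrp2, and only 1 member, against 3 with those animals, met the call rule.

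The other members overlapped between the immune fractions of the tumours. Sema3f ranged from 6.95 to 33.8 in 66cl4 and from 9.26 to 67.0 in 67NR CD45+ libraries (log2 fold change -0.59, SE 0.517), Plxna1 from 328 to 584 and from 491 to 861 (-0.40, SE 0.186), and Plxnd1 from 472 to 826 and from 552 to 841 (-0.07, SE 0.155). Sema3b, at 2.78 to 10.5 and 3.09 to 25.3, and Sema3d, at 0.964 to 8.60 and 0 to 3.12, were too low to be fitted.

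The make-up of the immune fraction differed as well. Of the neutrophil markers, 5 of 7 were higher in 66cl4 CD45+ cells, with a summed level of 44190 to 125300 against 7185 to 52320, whereas 2 of 9 macrophage and monocyte markers and 3 of 7 fibroblast markers were lower. The fibroblast sum was 166 to 1389 in 66cl4 and 862 to 3686 in 67NR CD45+ libraries, so that Sema3c and the fibroblast markers were lower in 66cl4 together, whereas Sema3a and Sema3e were higher. Krt8 (log2 fold change 4.87) and Krt18 (3.18), the keratins that were higher in 66cl4 CD45- cells, were higher here too, and the part of any of these cells in the values of the members was not tested.

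**Figure D2:**
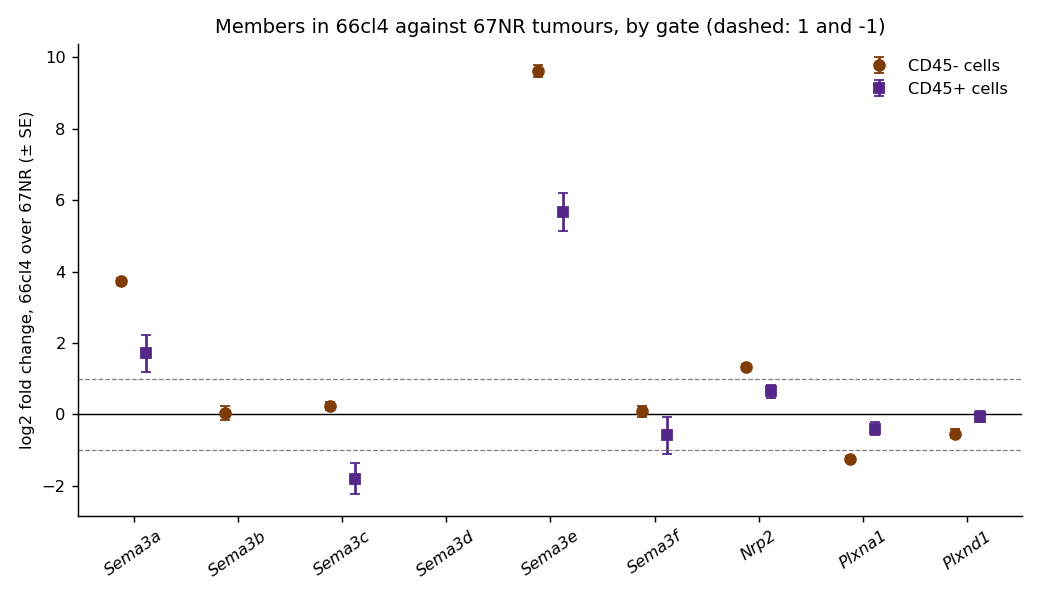
Log2 fold change of each member that passed the filter, 66cl4 over 67NR, with its SE, in CD45- and in CD45+ cells. Sema3e is the highest in both fractions, at 9.61 and 5.68, and Sema3c is at 0.24 in CD45- and -1.80 in CD45+ cells.

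The 2 tumours also differed in which ligand made up their class 3 transcripts. On the TPM scale, the 6 ligands and Sema3g, the remaining class 3 ligand, summed to 208 ± 19.4 TPM in 66cl4 and 38.8 ± 6.06 TPM in 67NR CD45- cells (SD, n = 5 each), and to 9.72 ± 5.16 and 6.35 ± 3.47 TPM in the CD45+ cells. The CD45- sums did not overlap (187.6 to 227 against 31.7 to 45.3 TPM), whereas the CD45+ sums did. Sema3a made up 59.3% ± 3.12 of the sum in 66cl4 CD45- cells and 24.01% ± 2.47 in 67NR. Sema3c, with the opposite order, made up 9.78% ± 1.15 and 44.3% ± 3.38. Sema3e accounted for 24.8% ± 1.97 and 0.169% ± 0.0600, and Sema3f for 4.79% ± 0.908 and 23.7% ± 4.51.

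For Sema3a, Sema3c and Sema3e, the shares in the CD45+ fraction were nearer to those in the CD45- fraction of the same tumour than to those of the other tumour. Sema3a was 58.2% ± 4.795 of the ligand sum in 66cl4 CD45+ and 26.5% ± 2.41 in 67NR CD45+ cells, Sema3c 10.7% ± 2.30 and 52.3% ± 2.94, and Sema3e 21.4% ± 1.88 and 0.719% ± 0.526. Sema3f differed between the fractions of 67NR, at 23.7% (18.7% to 29.1%) in CD45- and 14.1% (11.6% to 16.1%) in CD45+ cells without overlap, and made up 6.78% ± 1.80 in 66cl4 CD45+ cells. Within a tumour the shares of Sema3a and Sema3e in the immune and non-immune fractions were thus a few percentage points apart, while the ligand sum was many times lower in the immune fraction.

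**Figure D3:**
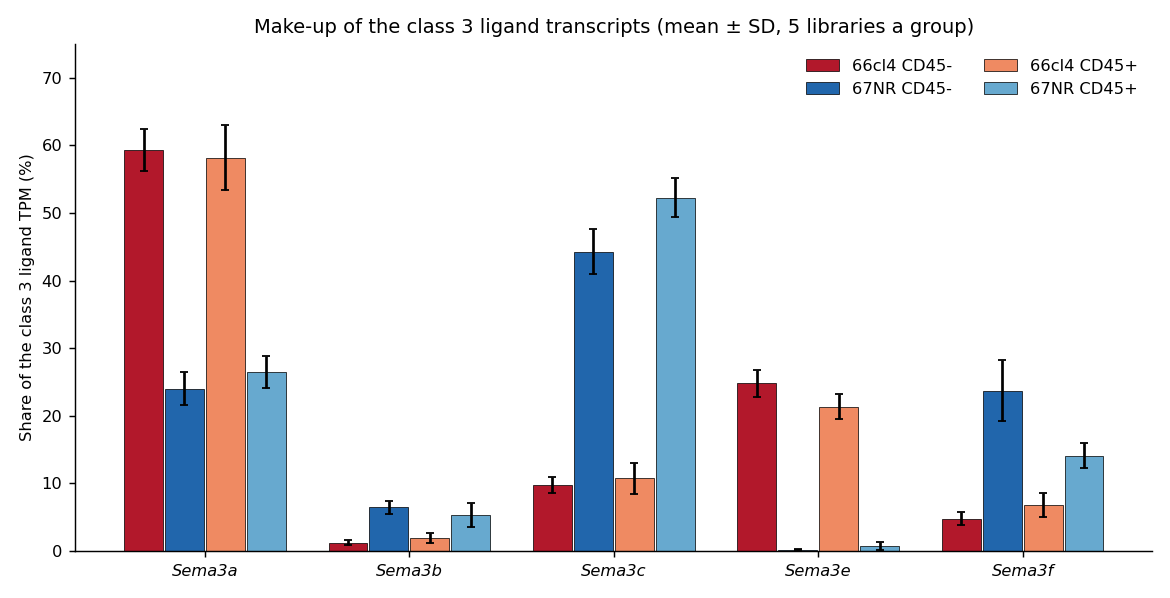
Share of a class 3 ligand in the summed ligand TPM of a library, in percent, as the mean with its SD over the 5 libraries of each group. Sema3a, Sema3b, Sema3c, Sema3e and Sema3f are shown, and Sema3d and Sema3g, which are also in the sum, are not. Sema3a stands at 59.3% and 58.2% in the CD45- and CD45+ cells of 66cl4 and at 24.01% and 26.5% in those of 67NR, whereas Sema3f in 67NR is at 23.7% and 14.1% and Sema3c at 44.3% and 52.3%.

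Between the fractions, every member but Plxnd1 and Sema3d lay lower in the immune cells of 66cl4 tumours. Of the 8 that passed the filter, 6 met the call rule and all 6 were lower, against 20.5% of all 14916 genes called lower and 44.4% called in either direction. The libraries of 7 of the 9 lay below those of the CD45- fraction without overlap, as did 30.0% of all genes. The median log2 fold change was -3.92 over the tested members and 0.00 over all genes. The ligands had log2 fold changes of -3.91 (Sema3f, SE 0.275) to -4.61 (Sema3e, SE 0.355), the receptors of -1.91 (Nrp2, SE 0.129), -0.84 (Plxna1, SE 0.140) and -0.13 (Plxnd1, SE 0.138). Without animals 5 and 6 the values ran from -3.94 (Sema3b) to -4.70 (Sema3e) for the ligands and were -1.93, -0.83 and -0.11 for the receptors.

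In 67NR tumours, 7 members passed the filter and 6 met the call rule, all lower in the immune cells, beside 19.6% of all 15063 genes called lower and 39.8% called in either direction. For 6 of the 9 the CD45+ libraries lay below without overlap, as they did for 28.0% of all genes. The median was -2.34 over the tested members and -0.05 over all genes. Log2 fold changes ran from -2.34 (Sema3c, SE 0.356) to -3.26 (Sema3f, SE 0.421) for the ligands and were -1.23 (Nrp2, SE 0.153), -1.68 (Plxna1, SE 0.152) and -0.58 (Plxnd1, SE 0.155) for the receptors.

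The level in the CD45+ cells as a percentage of that in the CD45- cells of the same animal sets the ligands beside genes of non-immune cells. In 66cl4 animals the median was 5.31% for Sema3a (1.49% to 7.32%), 4.68% for Sema3c, 4.53% for Sema3e (0.997% to 6.55%) and 6.08% for Sema3f. The summed fibroblast markers had a median of 5.22% (1.67% to 10.1%), the epithelial markers 11.4% (9.74% to 15.7%) and the pericyte markers 12.9%. These 4 ligands and the fibroblast list covered similar ranges, whereas Sema3d, from a few counts a library, ran from 12.9% to 172%, and 66cl4 animal 3 was lowest for Sema3a, Sema3c, Sema3e, Sema3f and the fibroblast list. Whether ligand transcripts in the CD45+ libraries came from non-immune cells was not tested.

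Receptors kept more of their level in the immune cells. Nrp2 had a median of 24.4% (23.3% to 32.9%), Plxna1 59.3% (41.5% to 68.4%) and Plxnd1 94.0% (75.8% to 105%) in 66cl4 animals. All 3 receptor genes therefore lay above the highest fibroblast share of 10.1% in every 66cl4 animal. In 67NR animals the medians were 24.2% for Sema3a (6.15% to 29.0%), 19.8% for Sema3c (6.53% to 33.9%), 7.31% for Sema3f, 45.8% for Nrp2, 30.7% for Plxna1 and 68.6% for Plxnd1, beside 10.4% for the fibroblast list (4.24% to 23.9%) and 5.74% for the pericyte list. The epithelial sum, lower in the CD45+ cells of all 5 66cl4 animals, had a median of 131% (49.5% to 197%) in 67NR animals. Of its 5 markers tested in 67NR, 3 were called lower and 1 higher in CD45+ cells, so the sum did not follow most of them. The summed endothelial markers had medians of 128% in 66cl4 and 63.4% in 67NR animals. Marker by marker, 2 of 4 tested were called lower and 2 higher in the CD45+ cells of 66cl4. In 67NR 5 of 7 were called lower and 1 higher, so there most of them did separate with the gate.

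**Figure D4:**
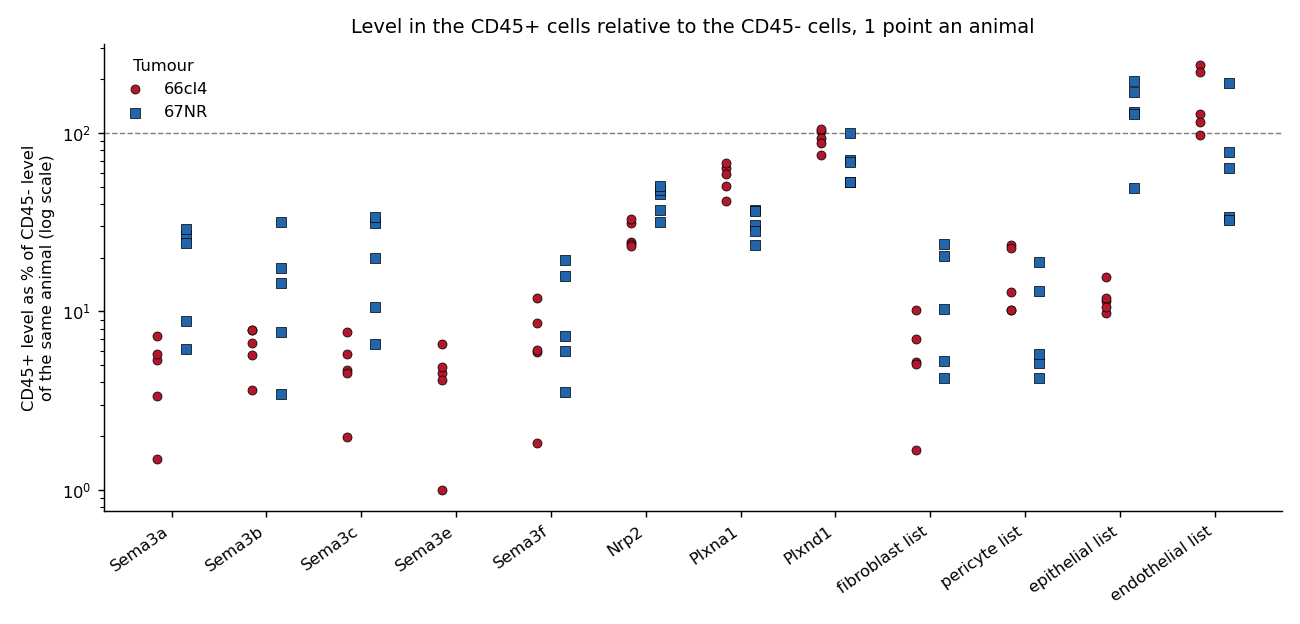
Level in CD45+ cells as a percentage of the level in CD45- cells of the same animal, on a log scale, 1 point an animal, for the members and for the summed marker lists. In 66cl4 tumours the ligands other than Sema3d lie between 0.997% and 11.9%, next to the fibroblast list, and Plxnd1 lies between 75.8% and 105%.

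The difference between tumours was also set side by side in the fractions, as the log2 fold change in CD45+ cells less that in CD45- cells, and is given with no test. It was -3.90 (SE 0.838) for Sema3e, -1.997 (SE 0.438) for Sema3c, -1.98 (SE 0.523) for Sema3a, -0.66 (SE 0.190) for Nrp2 and 0.85 (SE 0.202) for Plxna1. Without 66cl4 animals 5 and 6 they were -3.93, -1.99, -1.90, -0.62 and 0.93. The values for Sema3b, Sema3f and Plxnd1 were -1.14 (SE 0.526), -0.63 (SE 0.511) and 0.47 (SE 0.219). For Sema3a, Sema3e and Nrp2 the sign was that of a smaller excess in the immune cells, and for Plxna1 that of a smaller deficit.

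Ranked by TPM, the order of the members changed with tumour and fraction. In 66cl4 CD45- cells Sema3a led with 124 ± 16.8 TPM (SD, n = 5), followed by Nrp2 (84.8 ± 7.71), Sema3e (51.4 ± 4.02) and Sema3c (20.4 ± 3.29), each without overlap with the next. Sema3f (9.87), Plxna1 (9.22) and Plxnd1 (7.83) overlapped with their neighbours in the order, and Sema3b (2.51) and Sema3d (0.150) came last. In 67NR CD45- cells Nrp2 led with 33.7 ± 5.08 TPM, followed by Plxna1 (21.7 ± 3.83), Sema3c (17.2 ± 3.10), Plxnd1 (11.4 ± 3.34), Sema3a (9.29 ± 1.51) and Sema3f (9.24 ± 2.44), where each overlapped with the next, then Sema3b (2.47), and Sema3d (0.0858) and Sema3e (0.0648) at the end.

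Nrp2 was the highest member in the immune cells of both tumours. It had 22.9 ± 5.65 TPM in 66cl4 and 14.1 ± 2.34 TPM in 67NR CD45+ cells, above Plxnd1 with 7.30 ± 1.92 and 7.56 ± 1.75 TPM and without overlap with it. From Plxnd1 downwards neighbours in the order overlapped in 66cl4 CD45+ cells (Sema3a 5.77, Plxna1 5.23, Sema3e 2.09, Sema3c 0.966, Sema3f 0.642, Sema3b 0.162 and Sema3d 0.0733 TPM). In 67NR CD45+ cells they overlapped from Plxnd1 to Sema3b (Plxna1 6.69, Sema3c 3.27, Sema3a 1.68, Sema3f 0.934 and Sema3b 0.351 TPM), and Sema3e (0.0391) and Sema3d (0.0209) lay below.

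The members on chromosome 5 differed in their pattern. In the RefSeq GRCm38.p6 gene order Sema3d, Sema3a, Sema3e and Sema3c follow each other on chromosome 5, with 0, 3 and 15 protein-coding genes between neighbours. Of the 3 genes between Sema3a and Sema3e, Speer3 had 47.8 to 97.7 normalised counts in 66cl4 CD45- libraries and 0 to 0.878 in those of 67NR, Gm6650 had 9.29 to 32.9 and 0 to 1.76, and Gm6647 had no count in any library. These neighbours were picked after their values were seen, and the Speer genes have near-identical copies, so their counts are uncertain. Of the genes between Sema3e and Sema3c, Hgf, which encodes hepatocyte growth factor, ran the other way, with 1.67 to 11.0 in 66cl4 and 39.5 to 80.3 in 67NR CD45- libraries. The pattern of high levels in 66cl4 thus stood for Sema3a, Speer3, Gm6650 and Sema3e and not for Sema3d, Hgf or Sema3c.

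**Figure D5:**
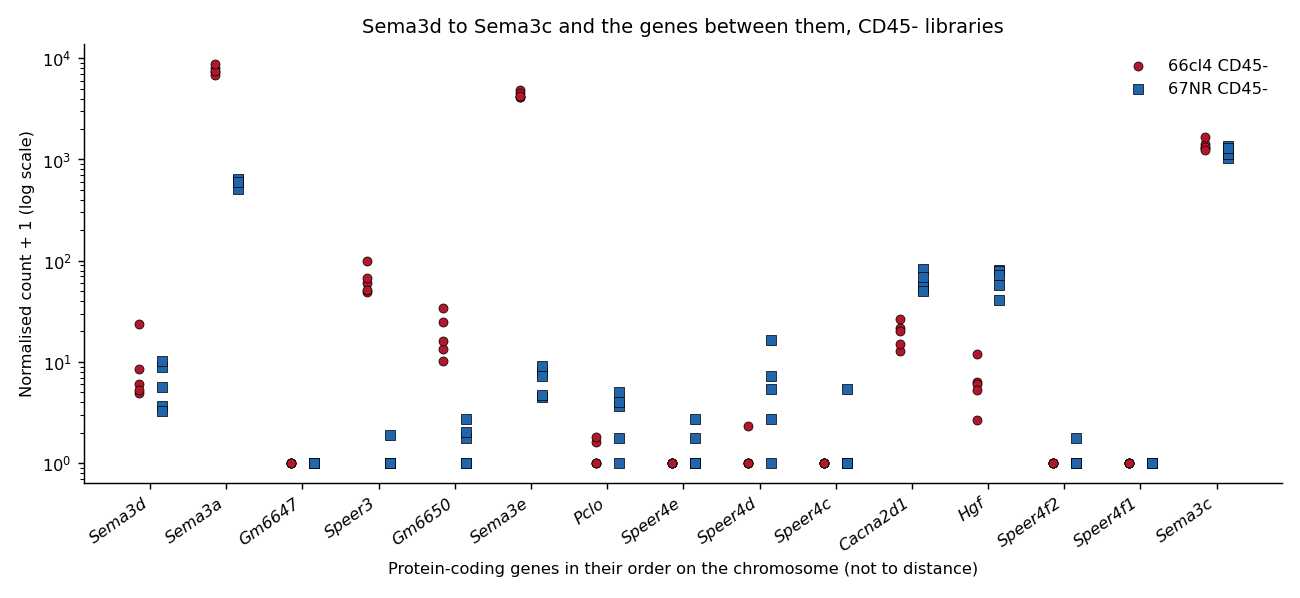
Normalised count plus 1 on a log scale for protein-coding genes from Sema3d to Sema3c in their order on chromosome 5. Each point is a CD45- library. Gm9758, Gm10354, Gm17019, Gm21149, Gm21190, Gm21083 and Gm28710, which lie between Sema3e and Sema3c, are not shown. From Sema3a to Sema3e the 66cl4 libraries lie above those of 67NR, except for Gm6647 at 0, and at Sema3c they overlap.

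The genes whose levels over the 20 libraries were most like those of a member were found by Pearson's r of log2(normalised count + 1), among 16453 genes. As the libraries fall into 4 groups, r mostly reflects the group levels, and it is given as a description. For Sema3a they were Pcdh17 (r 0.997), Bace1 (0.990) and Ogn (0.989), and for Sema3e Vmn1r139 (0.993), Grem1 (0.993), which encodes a BMP antagonist, and Lbx1 (0.991). For Sema3c they were Tbx15 (0.995), Hspb8 (0.994) and Plscr2 (0.994), for Sema3b Srrm4 (0.985), Mamstr (0.983) and Zfp462 (0.980), and for Sema3f Mpzl1 (0.989), Magi3 (0.987) and Fat1 (0.987). For the receptors they were Csf1 (0.983), Gm10845 (0.983) and Gm43366 (0.981) with Nrp2, Tctn3 (0.980), Arsa (0.979) and Mical2 (0.978) with Plxna1, and Tecpr2 (0.867), Phrf1 (0.862) and Smarcc2 (0.857) with Plxnd1, whose pattern had the least like genes. Among the members, r was 0.973 for Sema3a with Nrp2 and for Sema3b with Sema3f, and 0.837 for Sema3a with Sema3e.

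Around the members, 57 other genes of the pathway were followed in lists of the remaining class 3 ligand and receptors, other plexins, semaphorins of classes 4 to 7, co-receptors and VEGF partners, intracellular effectors, and convertases. Of these, 23 of 48 tested were called between tumours in CD45- cells (6 higher, 17 lower in 66cl4) and 13 of 47 in CD45+ cells (4 higher, 9 lower), beside the 32.2% and 11.8% of all genes. The tests that follow are edgeR's quasi-likelihood tests with p-values adjusted over all genes. The difference between tumours depended on the fraction (interaction, adjusted p under 0.05) for 27 of 52 fitted pathway genes, beside 43.1% of all 16453 genes. Without 66cl4 animals 5 and 6, the count in CD45+ cells was 8, and it was also 8 without 67NR CD45+ animal 4.

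Of the 5 remaining class 3 genes, edgeR called none of the 3 tested in CD45- cells (1 at an unadjusted p under 0.05). It called none of the 4 tested in CD45+ cells (2 at an unadjusted p under 0.05). DESeq2 called none of these same genes, and no DESeq2 result was read for genes that the filter of edgeR removed. Nrp1, the neuropilin of Sema3a, had a log2 fold change of 0.24 (SE 0.123, edgeR adjusted p = 0.0962) in CD45- cells, with means of 1013 and 876, and of -0.35 (SE 0.183, adjusted p = 0.202) in CD45+ cells. Plxna2 had -0.28 (adjusted p = 0.0386, under the fold threshold) and Plxna3 0.05 (adjusted p = 0.786) in CD45- cells. In CD45+ cells Plxna2 had -0.93 (adjusted p = 0.0712), Plxna3 0.01 (adjusted p = 0.981) and Plxna4 0.77 (adjusted p = 0.0668). Sema3g and Plxna4 were too low to be fitted in CD45- cells, with 0 to 3.19 normalised counts of Sema3g in 66cl4 and 8.18 to 42.0 in 67NR. Sema3g was lower in each 66cl4 library than in any of 67NR, and the cause was not tested.

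The co-receptor and VEGF list had 9 of 11 genes called in CD45- cells, 8 of them lower in 66cl4. Vegfc, which encodes a ligand of neuropilin 2 and of the lymphatic receptor Flt4, was the gene that rose (log2 fold change 5.13, SE 0.275, edgeR adjusted p = 6.97e-09). Among those that fell were the neuropilin co-receptors L1cam (-5.04, SE 0.303, adjusted p = 4.13e-09) and Nrcam (-3.80, adjusted p = 9.42e-07) and the VEGF receptor Kdr (-3.70, adjusted p = 0.00028), an endothelial gene. The median of the list was -2.62, beside -0.01 over all genes. In CD45+ cells 7 of 10 were called, 3 higher and 4 lower. Vegfa rose by 2.00 on the log2 scale (SE 0.460, adjusted p = 0.0116, and 0.0541 without 66cl4 animals 5 and 6). Kdr (-1.84, adjusted p = 0.000376), Vegfd (-1.59, adjusted p = 0.0242) and Pgf (-1.53, adjusted p = 0.0344) fell, but Vegfd and Pgf lost their calls without 66cl4 animals 5 and 6 (adjusted p = 0.113 and 0.0735). Vegfd also lost its call without 66cl4 CD45+ animal 5 (0.0595) or 67NR CD45+ animal 4 (0.0634) or 5 (0.0534), and Pgf without 66cl4 CD45+ animal 3, 4 or 5 (0.0639, 0.0727 and 0.0758) or 67NR CD45+ animal 4 (0.103).

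Semaphorins of other classes, most of which are bound to the membrane, moved in both directions. In CD45- cells 5 of 11 tested were called, with Sema6c (log2 fold change 2.88, edgeR adjusted p = 3.46e-06) and Sema6a (2.24, adjusted p = 0.000184) higher and Sema6d (-4.83, SE 0.191, adjusted p = 7.21e-11) and Sema7a (-2.53, adjusted p = 2.3e-08), a lipid-anchored semaphorin, lower. In CD45+ cells 3 of 10 were called, all lower in 66cl4, namely Sema5a (-2.11, adjusted p = 0.0238, 0.100 without 66cl4 animals 5 and 6 and 0.060 without 67NR CD45+ animal 4), Sema7a (-1.56, adjusted p = 0.00517) and Sema6d (-1.41, adjusted p = 0.00108). Of the other plexins, edgeR and DESeq2 called none of 2 in CD45- cells (2 at an unadjusted p under 0.05) and edgeR called Plxnb3 alone of 3 in CD45+ cells (-2.08, adjusted p = 0.00178).

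Inside the cell, 7 of 17 tested effectors were called in CD45- cells, 2 higher and 5 lower. Farp2, a plexin-bound activator of Rac1, fell by 2.01 on the log2 scale (SE 0.110, edgeR adjusted p = 1.52e-09), and Mical1 (-1.90, adjusted p = 0.000327) and Mical2 (-1.65, adjusted p = 4.91e-09), which oxidise actin, and the kinase gene Fes (-1.77, adjusted p = 0.000263) were also lower. Fes and Mical1 had means of 9.35 and 5.48 normalised counts in 66cl4 CD45- cells and of 1144 and 384 in 66cl4 CD45+ cells, and markers of immune cells in the CD45- fraction were lower in 66cl4 too. Of these, 5 of 9 macrophage and monocyte markers (summed level 171 to 1976 against 1630 to 4716), 2 of 5 tested neutrophil markers (149 to 513 against 638 to 935), Ptprc (-1.79) and Laptm5 (-1.93) were lower, and Itgb2 (3.92) was higher and brought the leukocyte sum to 3280 to 4223 against 756 to 1726. The part of immune cells in the values of Fes and Mical1 was not tested. In CD45+ cells 2 of 18 were called, Dpysl3 higher (2.72, SE 0.337, adjusted p = 0.000319) and Mical2 lower (-1.08, adjusted p = 0.00534). Of the 4 convertases, Furin (-1.16, SE 0.135, adjusted p = 3.54e-06, means 461 and 1054) and Pcsk6 (-1.53, adjusted p = 0.0345) were lower in 66cl4 CD45- cells, and edgeR and DESeq2 called none of the 2 tested in CD45+ cells (1 at an unadjusted p under 0.05). Pcsk6 lost its call without 66cl4 animals 5 and 6 (adjusted p = 0.128), without any of 66cl4 CD45- animals 3 to 6 (0.055 to 0.0973) and without 67NR CD45- animal 1, 4 or 7 (0.0515 to 0.0708). Mical2 in CD45+ cells fell under the fold threshold without 66cl4 animal 6 (-0.97) or 67NR animal 4 (-0.96).

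Between the fractions, 34 of 47 tested pathway genes were called in 66cl4 tumours (17 in each direction) and 27 of 48 in 67NR tumours (8 higher and 19 lower in CD45+ cells), beside the 44.4% and 39.8% of all genes. Without animals 5 and 6 the count in 66cl4 was 36. Of the remaining class 3 genes, Plxna4 was higher in immune cells of 66cl4 (log2 fold change 5.66, SE 0.493, edgeR adjusted p = 4.34e-07) and 67NR tumours (2.13, SE 0.272, adjusted p = 3.32e-05). Plxna2 (-3.22, adjusted p = 6.62e-09 in 66cl4, and -2.58, adjusted p = 2.45e-05 in 67NR) and Plxna3 (-2.11, adjusted p = 1.11e-06, and -2.06, adjusted p = 4.03e-06) were lower in them, and Sema3g was lower in 67NR (-2.85, adjusted p = 0.00977). Nrp1 was not called in 66cl4 (-0.06, adjusted p = 0.783) and stood under the fold threshold in 67NR (0.54, adjusted p = 0.00412).

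The immune fractions held semaphorins of another kind. Sema4d, known for its role on T cells and B cells, was higher in CD45+ cells by 6.78 on the log2 scale in 66cl4 (SE 0.236, edgeR adjusted p = 6.6e-10) and by 6.24 in 67NR (SE 0.294, adjusted p = 1.67e-08), and Sema4a by 6.73 (adjusted p = 7.62e-10) and 5.98 (adjusted p = 2.27e-07). Sema5a was lower in them, at -4.29 in 66cl4 (adjusted p = 7.54e-07) and -2.58 in 67NR tumours. All 12 tested genes of this list were called in 66cl4 (5 higher, 7 lower) and 4 of 9 in 67NR (2 higher, 2 lower). Plxnc1, the receptor of Sema7a, was higher in CD45+ cells of 66cl4 (3.03, adjusted p = 1.01e-08) and 67NR (3.41, adjusted p = 3.05e-08).

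Partners and effectors split likewise between the fractions. Of the co-receptor list, 8 of 10 were called in 66cl4 (4 in each direction), with L1cam (7.38, edgeR adjusted p = 1.58e-09) and Nrcam (4.26, adjusted p = 2.36e-07) higher and Vegfc (-3.87, adjusted p = 2e-07) and Vegfd (-3.23, adjusted p = 3.47e-06) lower in CD45+ cells. In 67NR 8 of 11 were called, 7 of them lower, among them Pgf (-2.54), Chl1 (-2.35), Flt1 (-2.23) and Vegfd (-2.23). Of the 17 effectors tested in each tumour 8 were called in 66cl4 (4 in each direction) and 8 in 67NR (2 higher, 6 lower). Fes, a kinase of myeloid cells, was higher in CD45+ cells by 6.85 (adjusted p = 3.92e-09) and 4.72, and Mical1 by 5.98 and 3.74, and Farp1 was lower, at -4.04 and -2.12. Among the convertases, Furin was higher in the CD45+ cells of 66cl4 (1.45, SE 0.180, adjusted p = 1.07e-05) and Pcsk5 lower in those of 67NR (-3.67, adjusted p = 0.000476).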

How the data were processed

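Gene expression was measured by mRNA sequencing (single reads, a SENSE mRNA-Seq kit) in 20 libraries from 10 mice. Per the labels and the study's methods, the authors trimmed reads with fastp, quantified transcripts with Salmon (version 1.3.0, base calls by bcl2fastq 2.2.20) and summed them to genes with tximport, and the deposited table holds these expected counts. The submitters name the reference GRCh38, a human build, although the gene identifiers are those of mouse. Whether counting used the strand is not given in the sources used here, so reads of a gene and of an antisense transcript over it cannot be told apart.

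Counts were rounded to whole numbers (change of at most 0.5) and groups were taken from the sample titles. Of 52783 genes, 51492 had a symbol and a transcript length (GENCODE vM21), and genes without one held 2.58% of the counts. Genes passing edgeR's filter (minimum count 10, minimum total 15) were tested with edgeR 4.0.16 (R 4.3.3), TMM factors and Benjamini-Hochberg adjustment over all genes, with only the libraries of the 2 groups compared, and with all 20 for the interaction of tumour and fraction. A gene was called at an adjusted p under 0.05 where its log2 fold change exceeded 1 in size, and for the interaction at the adjusted p alone. The SE of a log2 fold change was its size divided by the square root of the F statistic of edgeR's quasi-likelihood test. It therefore carries the same information as that test. Normalised counts used DESeq2 1.42.0 size factors. A count of 0 allows up to 3 counts, or 0.107 to 0.232 CPM in these libraries, and intervals and floors cover counting error only.

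The 9 members and all lists were chosen with earlier results of these data known. All 9 members were named, with up to 4 called genes of each pathway list by absolute log2 fold change and the 5 genes of the first list. Both fractions of an animal carry its number, and deviations of the fractions of an animal from the group means correlated at 0.0245 to 0.124 (66cl4) and -0.00143 to 0.303 (67NR). Replicates are separate animals, and replicate pairs differed by more than sampling noise (chi-square per degree of freedom 13.5 to 170). On simulated counts with 200 genes changed 4-fold, edgeR recovered 198 in the CD45- comparison (14581 genes) and 189 in the CD45+ comparison (14501). It recovered 189 between fractions of 66cl4 (14654), 185 between those of 67NR (14862) and 184 for the interaction (15954). The changed genes were drawn only from genes above a floor on expected count, and libraries were simulated independently. Recovery of low genes and the pairing of fractions within animals were thus not covered. Alternatives were DESeq2, its size factors in edgeR, no filter, a filter of 10 counts in 5 libraries, all 20 libraries in the fit, the replicate number as a block, omission of 66cl4 animals 5 and 6 and of each library in turn.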

Additional observations from a re-analysis of the deposited data

Results flagged for a closer look

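Of 40 groups of 5 libraries examined (the members' levels and the total counts in each group), 3 held a library that stood apart from the other 4, where chance gives about 1 group in 20. Sema3d in 66cl4 CD45- cells was at 23.0 normalised counts in animal 7 and at 3.98 to 7.49 in the others. Plxnd1 in 66cl4 CD45- cells was at 808 in animal 3 and at 624 to 653 in the others. The total count of 67NR CD45- animal 7 was 16917109, against 21199064 to 22180348 in the other libraries of that group.

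The difference between 66cl4 and 67NR differed by fraction (edgeR's interaction test, adjusted p under 0.05) for 27 of the 52 pathway genes fitted, beside 43.1% of all genes. Values are the log2 fold change in CD45+ cells less that in CD45- cells, each with its adjusted p. Of the class 3 receptors outside the members, Plxna4 had 3.53 (adjusted p = 7.1e-05), and Nrp1 had -0.58 (adjusted p = 0.0584), Plxna2 -0.62 (adjusted p = 0.157), Plxna3 -0.03 (adjusted p = 0.947) and Sema3g 2.92 (adjusted p = 0.213), which were not called. Of the neuropilin partners, L1cam had 6.54 (adjusted p = 1.78e-10), Vegfc -4.03 (adjusted p = 8.23e-07), Nrcam 3.21 (adjusted p = 6.03e-05) and Vegfa 3.18 (adjusted p = 3.57e-05). L1cam and Nrcam were lower in 66cl4 CD45- cells, and Vegfc was higher there.

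Among the convertases, Furin had 1.65 (adjusted p = 3.77e-06) and Pcsk7 -0.46 (adjusted p = 0.0291). Of the effectors, Dpysl3 had 3.50 (adjusted p = 1.49e-05), Mical1 2.25 (adjusted p = 0.000137), Fes 2.14 (adjusted p = 0.000166) and Farp1 -1.90 (adjusted p = 0.000501). Of the semaphorins of other classes, Sema6a had -3.62 (adjusted p = 0.00098), Sema6d 3.43 (adjusted p = 4.45e-08), Sema4f -2.43 (adjusted p = 0.0096) and Sema5a -1.68 (adjusted p = 0.0231). Pcsk7 lost its call without 66cl4 CD45- animal 7 (0.0505) or 67NR CD45+ animal 7 (0.0539) and Sema5a without 67NR CD45+ animal 4 (0.0594), and without 66cl4 animals 5 and 6 they were at 0.149 and 0.123.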

How the results depend on the processing

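No member or pathway gene that was called changed sign under any alternative. All 711 member log2 fold changes and 459 ratios of member means computed under alternatives moved by less than the spread between replicates. Of 4528 values of pathway genes, 4348 kept their side of the thresholds, 108 lost and 72 gained a call. In CD45+ cells the members that met the call rule between tumours were 1 with the replicate number as a block and 1 without 66cl4 animals 5 and 6 (3 as reported), and the pathway genes called were 8 without 66cl4 animals 5 and 6 (13 as reported). The cause was not tested. With each library left out in turn, pathway genes called ranged from 8 (without 67NR CD45+ animal 4) to 14 in CD45+ and from 22 to 25 in CD45- cells, from 35 to 36 and from 26 to 30 between the fractions of 66cl4 and 67NR, and from 24 to 30 for the interaction. Tumours did not share animals, and same-numbered animals of the tumours did not deviate together (r -0.124 to 0.0705). Between tumours the replicate block therefore paired unrelated mice. In it 66cl4 animal 3 and 67NR animal 1 had no partner and added nothing to the contrast. With the replicate block, pathway genes called were 21 and 10 between tumours in CD45- and CD45+ cells, 35 and 27 between the fractions of 66cl4 and 67NR, and 26 for the interaction, and Sema3f in CD45+ cells was at 0.06 against -0.59. The block took the calls of Gipc1 and Pcsk6 in CD45- cells, of Sema5a, Vegfd and Pgf in CD45+ cells and of Kdr, Cdk5 and Pcsk7 in the interaction, and it added Rnd1 between the fractions of 66cl4 and Nrp1 and Rras in the interaction. Without a filter Sema5a in CD45+ cells (adjusted p = 0.0697) and, in the interaction, Pcsk7 (0.0709) and Sema5a (0.0618) were not called. The median log2 fold change of all genes was -0.20 in CD45- cells, 0.16 between the fractions of 66cl4 and 0.18 in the interaction under DESeq2, which was run without the filter on low counts, and -0.15, 0.08 and 0.13 under edgeR without that filter, against -0.01, 0.00 and 0.03 as reported and size factors of DESeq2 in edgeR with the filter gave -0.03, 0.07 and 0.05. By Spearman's rho, 1 of the 3 genes most like Sema3a and 1 of those most like Plxna1 were shared, and none for the other members. Depth limits the values of Sema3d in all groups, of Sema3e in 67NR and of Sema3b in CD45+ cells.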
